A study of Lathyrus oleraceus with 6 samples.

Results

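A set of 5 loci of the pea genome v1a that are annotated as MYB or MYB-related transcription factors was followed in roots treated with chitooligosaccharides. They were Psat4g080720, Psat4g215000, Psat1g209120, Psat7g159800 and Psat0s128g0120, out of the 44756 loci in the count table. They were chosen from a list of changed genes made from the same 6 libraries, because 4 of them had more transcripts after treatment and 1 had fewer. The difference between treated and control libraries is therefore what selected them, and it is given here as a description. The calls, standard errors and fits with a library left out describe how the selected values spread, and they are no test of these loci.

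MYB proteins bind DNA through a domain built of repeated helix-turn-helix units. Most plant MYB proteins that act as activators or repressors of single pathways belong to the R2R3 class, which has a pair of such repeats. In Arabidopsis, members of this class control phenylpropanoid and flavonoid synthesis, secondary wall deposition, the fate of root epidermal cells and responses to jasmonic acid, salicylic acid and phosphate starvation.

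The treated group, CO8-DA, was 3 libraries from roots of wild-type (WT) seedlings of cultivar Frisson, 4 to 5 days old, after 24 h in 0.5x Jensen's medium with 1e-05 M deacetylated chitooligosaccharides. These are short chains of glucosamine units, here with a main degree of polymerization near 8, and plant cells perceive oligomers derived from chitin as signals of fungi. The control group was 3 libraries from roots of the same cultivar, age and duration in the medium alone. Each library was made from the pooled roots of several plants, and all 6 were sequenced in a single lane according to the methods of the study.

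The deposited estimated counts summed to 12315774 to 19534336 per library. Levels are CPM, counts relative to the library total after TMM scaling, with n = 3 libraries per group and the SD between them. The median log2 fold change of the 21293 tested loci was -0.01. TMM scaling places the bulk of the loci near 0, so a change of the named loci is relative to that bulk. A shift of total RNA would not show. Root marker genes could not be checked, because the identifiers were not paired with names of such genes in the sources used here. These are bulk roots, so fewer cells of a type and less RNA per cell cannot be told apart.

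Of the 5 MYB loci, 4 passed the filter on low counts. edgeR's quasi-likelihood test called 3 of these higher and 1 lower after CO8-DA, at a Benjamini-Hochberg adjusted p under 0.05 and a log2 fold change of at least 1 in size. Over all tested loci the same rule called 2.63% higher and 0.493% lower, or 3.13% in either direction. Because this contrast chose the loci, nothing is read from their count. Psat4g080720 missed the filter with its 51 counts, and passed it when CO8-DA replicate 2, its lowest treated library, or any 1 control library was left out. Both DESeq2 and edgeR without the filter called it higher and made 5 calls among the 5 loci, 4 higher and 1 lower. Of 28465 loci DESeq2 called 2.44% higher, 0.689% lower and 3.13% in either direction. Without the filter edgeR called 2.13% of these higher, 0.46% lower and 2.59% in either direction. In none of the 5 loci did the CO8-DA and control libraries overlap in CPM. Such separation was present at 25.4% of all tested loci, with CO8-DA above at 13.7% and below at 11.7%.

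**Figure D1:**
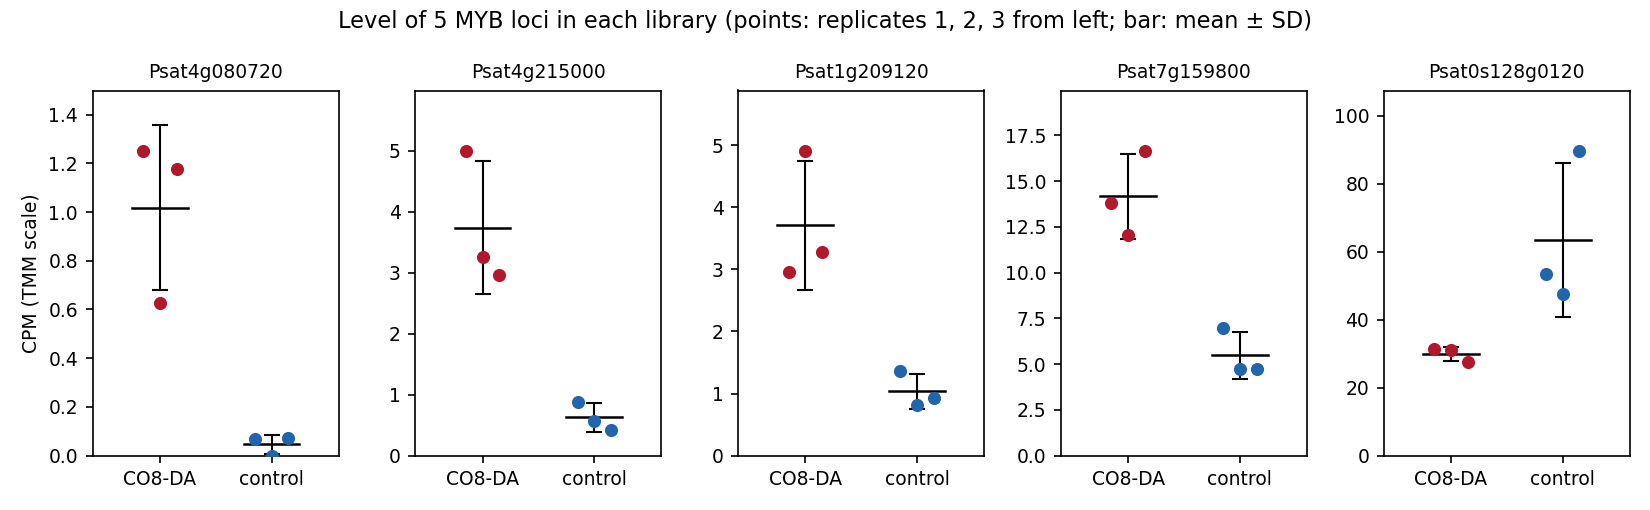
Level of each MYB locus in CPM on the TMM scale in the 3 CO8-DA libraries (left, red) and the 3 control libraries (right, blue), each panel with its own axis from 0. Points are replicates 1, 2 and 3 from left to right, and bars are the mean and SD. The CO8-DA points lie above all control points at the 4 loci on the left and below them at Psat0s128g0120.

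Psat4g080720 carries Gene Ontology text on responses to salicylic acid, jasmonic acid, gibberellin, abscisic acid and blue light, and a Myb DNA-binding domain. Salicylic acid and jasmonic acid are the main hormones of plant defence. Its transcripts numbered 16, 10 and 23 in CO8-DA replicates 1, 2 and 3, against 1, 0 and 1 in control replicates 1, 2 and 3. In CPM these are 1.25, 0.628 and 1.18 in CO8-DA roots, against 0.0678, 0 and 0.0714 in control roots. The locus was close to the limit of detection in every control library. The count of 0 in control replicate 2 allows a level of up to 0.245 CPM, the value of 3 counts, which is still under the lowest CO8-DA library. The 49 counts in CO8-DA against 2 in the control gave a ratio of 20.8 after correction for depth, with an exact conditional binomial 95% interval of 5.46 to 177. Without molecular identifiers on the reads, the interval and the limit cover only counting error, and they make no allowance for the choice of the locus on this difference. Without the filter the edgeR log2 fold change was 4.17. With each library left out in turn it passed the filter in 4 of 6 fits and was called in 3, the loss being without control replicate 3 at a log2 fold change of 4.50.

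Psat4g215000 is described as a MYB factor with Gene Ontology text on flavonol biosynthesis, the branch of flavonoid metabolism that in Arabidopsis is under R2R3-MYB control. It had 64, 52 and 58 counts in CO8-DA replicates 1, 2 and 3, against 13, 7 and 6 counts in control replicates 1, 2 and 3. The CPM were 4.99, 3.27 and 2.97 in CO8-DA roots, against 0.882, 0.571 and 0.429 in control roots. CO8-DA replicate 1 and control replicate 1 were the highest of their groups, and the lowest CO8-DA library was 3.37-fold above the highest control library. The means were 3.74 ± 1.09 CPM after CO8-DA and 0.627 ± 0.232 CPM in the control (SD, n = 3 each), a 5.82-fold difference or 2.54 on the log2 scale (standard error 0.37). Among the 4 tested loci, Psat4g215000 was the only one that stayed called with each of the 6 libraries left out in turn, at log2 fold changes of 2.29 to 2.88.

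Psat1g209120 carries text on cuticle development, jasmonic acid, ethylene, wounding, chitin and negative regulation of transcription. A repressor role is thus annotated by similarity, which the count data do not address. The locus had 38, 78 and 64 counts in CO8-DA replicates 1, 2 and 3, against 20, 10 and 13 counts in control replicates 1, 2 and 3. In CPM it stood at 2.97, 4.90 and 3.27 in CO8-DA roots, against 1.36, 0.816 and 0.929 in control roots. CO8-DA replicate 2 was the highest of all and control replicate 1 the highest of the control, with a gap of 2.19-fold between the nearest libraries of the groups. The means were 3.71 ± 1.04 CPM after CO8-DA and 1.03 ± 0.285 CPM in the control (SD, n = 3 each), a 3.55-fold difference or 1.83 on the log2 scale (standard error 0.32). The call was kept in 2 of the 6 fits with a library left out. It was lost without CO8-DA replicate 2 or 3 or control replicate 2 or 3, while the log2 fold change stayed between 1.58 and 2.08. Without CO8-DA replicate 3 the log2 fold change was 1.915, above that of the fit to all libraries.

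Psat7g159800, a MYB-related locus, has text on secondary cell wall biogenesis, chitin, auxin, ethylene, abscisic acid and jasmonic acid. Secondary walls are the lignified layers that are laid down in xylem and fibres. Its estimated counts were 177.46, 192.13 and 324.97 in CO8-DA replicates 1, 2 and 3, against 103.1, 58.15 and 65.67 in control replicates 1, 2 and 3. After rounding, the CPM were 13.8, 12.1 and 16.6 in CO8-DA roots, against 6.99, 4.73 and 4.72 in control roots. CO8-DA replicate 3, the deepest library, was the highest, control replicate 1 was the highest of the control, and the nearest libraries of the groups lay 1.73-fold apart. The means were 14.2 ± 2.30 CPM after CO8-DA and 5.48 ± 1.31 CPM in the control (SD, n = 3 each), a 2.58-fold difference or 1.37 on the log2 scale (standard error 0.21). In 3 fits, those lacking CO8-DA replicate 1, CO8-DA replicate 3 or control replicate 3, it was not called, with log2 fold changes of 1.23 to 1.58 over the 6 fits.

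Psat0s128g0120 was the MYB locus that fell. Its text covers the response to phosphate starvation, chitin, salicylic acid, jasmonic acid, ethylene and gibberellin, with positive regulation of transcription. It had 401, 494 and 540 counts in CO8-DA replicates 1, 2 and 3, against 787, 582 and 1253 counts in control replicates 1, 2 and 3. The CPM were 31.3, 31.0 and 27.6 in CO8-DA roots, against 53.4, 47.5 and 89.5 in control roots. The CO8-DA libraries lay close together, whereas control replicate 3 stood well above the other control libraries. The nearest libraries of the groups were 1.52-fold apart. The means were 30.0 ± 2.05 CPM after CO8-DA and 63.5 ± 22.8 CPM in the control (SD, n = 3 each), 2.12-fold higher in the control, for a log2 fold change of -1.08 (standard error 0.23). The coefficient of variation was 6.82% after CO8-DA and 35.9% in the control, beside medians over all tested loci of 12.7% in CO8-DA and 14.3% in control libraries. Without control replicate 3 the log2 fold change was -0.75, under the fold threshold. The call was also lost without any 1 of the CO8-DA libraries, at -1.11, -1.11 and -1.03 without replicates 1, 2 and 3.

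**Figure D2:**
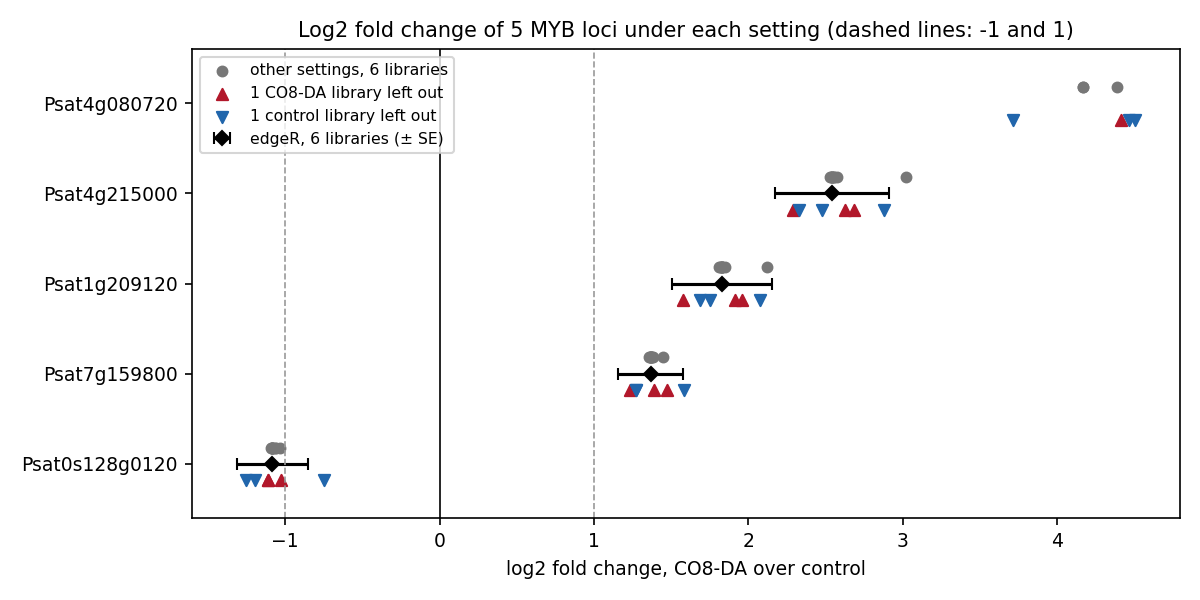
Log2 fold change (CO8-DA over control, horizontal axis) of each MYB locus. Diamonds are the edgeR fit to 6 libraries with its standard error, circles the other settings with 6 libraries, and triangles the fits with 1 CO8-DA (up) or control (down) library left out. All values of Psat0s128g0120 are negative, with -0.75 as the one farthest right, all values of the other loci are positive, and Psat4g080720 has no diamond because it missed the filter.

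Psat0s128g0120 marks the lower edge of the selection, at -1.08 against a fold threshold of 1 in size. A pair of loci with MYB descriptions had log2 fold changes just under the threshold and were not called, Psat1g073240 (R2R3-myb transcription factor) at 0.99 (standard error 0.33) and Psat6g174520 (Myb/SANT-like DNA-binding domain protein) at 0.99 (standard error 0.48). Psat1g073240 averaged 5.48 ± 1.03 CPM after CO8-DA and 2.76 ± 1.15 CPM in the control, and Psat6g174520 averaged 4.95 ± 0.987 CPM after CO8-DA and 2.46 ± 1.91 CPM in the control (SD, n = 3 each). They also missed the other threshold, with edgeR Benjamini-Hochberg adjusted p of 0.156 in Psat1g073240 and 0.317 in Psat6g174520. In Psat6g174520 this rested on control replicate 1, which had 4.61 CPM beside 0.979 and 1.79 CPM in control replicates 2 and 3. Without it the log2 fold change was 1.82 and the locus was called, as it was at 1.70 with a block by the number in the sample descriptions. In that block control replicate 1 and CO8-DA replicate 3 each stand alone under their number. That fit therefore also draws nothing from control replicate 1 and is no separate reading.

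How evenly the rising loci rose can be read inside single libraries from the log2 ratio of their counts, which scaling does not touch. The ratio depends on transcript length, so only its difference between libraries carries a reading. Psat1g209120 over Psat7g159800 was -2.22, -1.30 and -2.34 in CO8-DA replicates 1, 2 and 3, against -2.37, -2.54 and -2.34 in control replicates 1, 2 and 3, so the groups touched at replicate 3. Psat4g215000 over Psat7g159800 averaged -1.95 ± 0.51 in CO8-DA and -3.17 ± 0.26 in control libraries (SD, n = 3 each), with no overlap. How often pairs of loci separate in this way was not computed. The loci were chosen on this contrast, so the ratios largely restate their fold changes and are a description. Counts of Psat7g159800 are also an RSEM estimate that divides shared reads, as described below.

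Psat7g159800 was the one member whose estimated counts were not whole numbers, in 6 of 6 libraries, at a tolerance of 0.005. RSEM gives such values where it divides reads between loci of similar sequence, so the loci that could share its reads were searched by their sums. With Psat7g159760 and Psat7g154480 the estimates of Psat7g159800 added up to whole numbers in every library, at 334, 368 and 701 in CO8-DA replicates 1, 2 and 3, against 216, 148 and 156 in control replicates 1, 2 and 3. No single locus completed the sum, and of 38539810 pairs of candidate loci this was the only 1 that did, at a tolerance of 0.015.

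Both partners are annotated as MYB-type proteins. Psat7g159760 is the preceding locus in identifier order and is described as WER-like. WER is the Arabidopsis R2R3-MYB protein WEREWOLF, which sets the hairless fate of root epidermal cells. Psat7g154480 is described as MYB-related and held 0.660% to 3.11% of the sum in any library.

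RSEM's split of the sum was as follows. Psat7g159800 held 46.4% to 53.1% of the sum in CO8-DA libraries, against 39.3% to 47.7% in control libraries, and the ranges overlapped. The estimates of Psat7g159760 came to 11.5, 10.7 and 18.1 CPM in CO8-DA replicates 1, 2 and 3, against 7.52, 7.09 and 6.38 CPM in control replicates 1, 2 and 3. All of its CO8-DA libraries were above its control libraries, with CO8-DA replicate 3 the highest, as in Psat7g159800. The summed level of the 3 loci was 28.4 ± 6.68 CPM after CO8-DA and 12.6 ± 1.81 CPM in the control (SD, n = 3 each), a log2 fold change of 1.17 (standard error 0.19), beside 1.37 for Psat7g159800 and 0.95 for Psat7g159760 alone. The sum was examined after the values were seen. Which of the loci a shared read came from is an estimate of RSEM, and the precision of the split is unknown here.

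**Figure D3:**
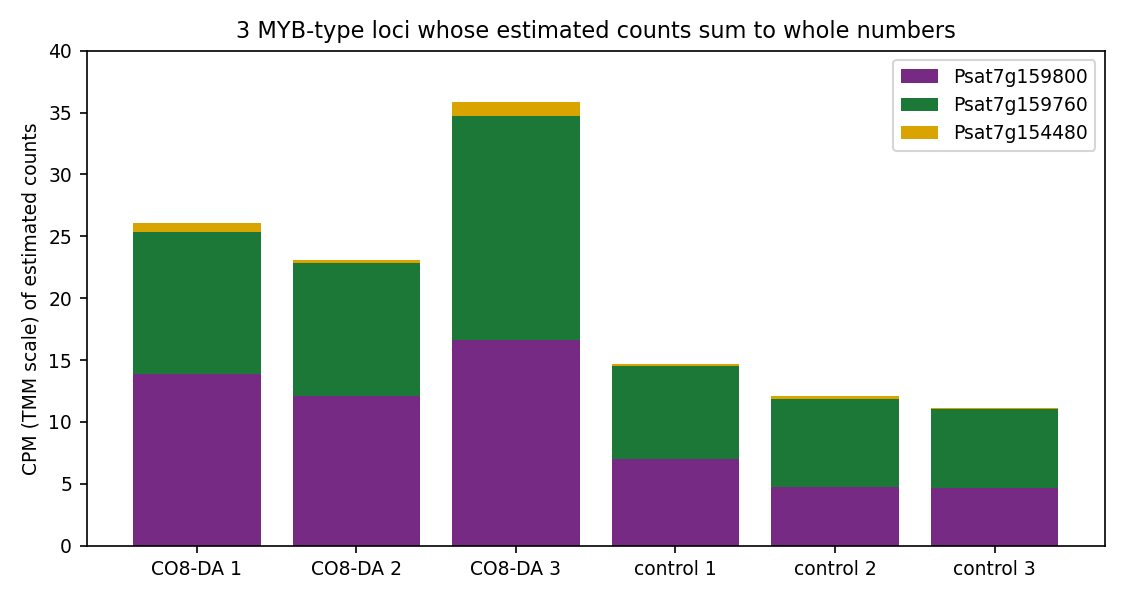
Estimated counts in CPM on the TMM scale (vertical axis) of Psat7g159800, Psat7g159760 and Psat7g154480, stacked, in CO8-DA replicates 1 to 3 (left) and control replicates 1 to 3 (right). The stacks of CO8-DA libraries reach 23.1 to 35.9 CPM, against 11.2 to 14.7 CPM in control libraries, and Psat7g154480 is a thin band at the top of each.

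Whether the change at a MYB locus extended to the loci around it was examined with the 5 nearest loci on each side in identifier order, which is taken to follow the chromosome. The identifiers place Psat4g080720 and Psat4g215000 on chromosome 4, Psat1g209120 on chromosome 1, Psat7g159800 on chromosome 7 and Psat0s128g0120 on a scaffold with only 2 other loci in reach. Of the 42 neighbours, 16 had no count in any library and 18 were tested. edgeR called 0 of them and DESeq2 called 0 of them, with 3 at an unadjusted edgeR p under 0.05. Among all tested loci edgeR called 3.13% and 19.1% had such a p. Beside these shares, 0 calls among 18 loci cannot answer whether the change extended to the neighbours. The log2 fold changes of the neighbours lay between -0.38 and 0.95, with a median of -0.08.

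The neighbour with the largest log2 fold change was Psat7g159760, the locus that shares reads with Psat7g159800, so it is not an independent measure of the region. Its log2 fold change was 0.95 (standard error 0.23) with an edgeR Benjamini-Hochberg adjusted p of 0.0590, and all 3 CO8-DA libraries were above all 3 control libraries. Over the alternatives its adjusted p ran between 0.00901, in DESeq2, and 0.194, with log2 fold changes of 0.67 to 1.09. It was called in 0 of 16 fits, the main fit included. The lowest edgeR adjusted p was at Psat4g214760, 3 loci before Psat4g215000, with 99.8 ± 7.57 CPM after CO8-DA and 73.0 ± 5.88 CPM in the control (SD, n = 3 each). Its log2 fold change was 0.45 (edgeR Benjamini-Hochberg adjusted p of 0.0554, with 0.0128 to 0.199 over the alternatives). Psat1g208880, 5 loci before Psat1g209120, had a larger log2 fold change of 0.70 (standard error 0.35, edgeR Benjamini-Hochberg adjusted p of 0.333). Psat1g209200, which follows Psat1g209120 by 2 loci, had a log2 fold change of 0.37 (edgeR Benjamini-Hochberg adjusted p of 0.131, with 0.0845 to 0.340 over the alternatives). These neighbours are named because of their values.

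**Figure D4:**
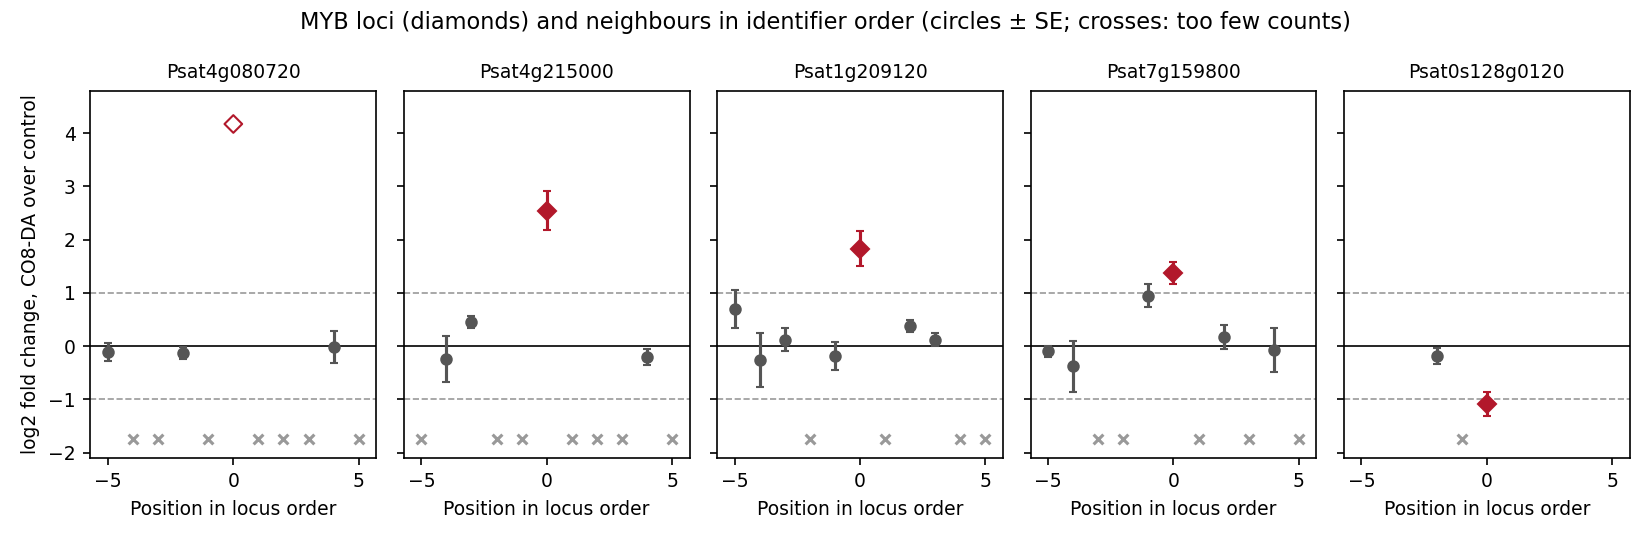
Log2 fold change (CO8-DA over control, vertical axis) of each MYB locus (red diamond) and of its neighbours in identifier order (grey circles with standard errors), against the position relative to the locus in loci. Crosses are neighbours with too few counts for a test, and the open diamond of Psat4g080720 is its value without the filter, 4.17. All 18 tested neighbours lie between the dashed lines at -1 and 1, and Psat7g159760, next to Psat7g159800, is the highest at 0.95.

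For each MYB locus the tested loci with the most similar course over the 6 libraries were listed, by the root mean square difference of their centred log2 CPM. A small difference over 6 libraries of which 3 are treated mainly says that both loci changed alike between the groups on this scale, and it is a description. Closest to Psat4g080720 were Psat4g190560, an HXXXD-type acyltransferase (difference 0.16), Psat2g002320, a DHHC-type zinc finger protein (0.19), and Psat7g246360, which has no description at hand (0.20). These differences are on a scale with a prior count of 2, which pulls low levels together. In the edgeR fit the log2 fold changes of these loci were 2.85, 2.47 and 2.72, in the order named. That of Psat4g080720 was larger, at 4.17 without the filter. With a prior count of 0.5 instead, 10 of the 15 listed loci were listed again over the 5 members.

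Closest to Psat4g215000 were Psat6g037320, a wall-associated receptor kinase-like protein (0.19), Psat5g228840, a sugar transporter (0.24), and Psat4g056640, a spotted leaf protein (0.27). Closest to Psat1g209120 was Psat1g161840, a WRKY factor and so a member of another large plant family of stress-related regulators (0.13), before Psat4g226200, a nodulin MtN21/EamA-like transporter, and Psat4g203720, a vacuolar iron transporter-like protein (0.18 each). Psat7g159800 was followed most closely by Psat6g113600, the ubiquitin ligase PUB14 (0.13), Psat7g125680, a PLC-like phosphodiesterase (0.14), and Psat6g176040, a glycosyltransferase (0.16). Psat6g112040, a peroxidase, had the course nearest to that of the falling Psat0s128g0120, at 0.10, before Psat7g073560 and the coatomer protein Psat6g143640, at 0.16 each. None of these listings is evidence of shared control.

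Phenylpropanoid and flavonoid enzymes are the best known targets of plant MYB factors, and 24 loci with such enzyme names were examined. Their names came from the annotation of genes that changed in these samples, so their counts are no independent evidence of a direction. Of the 24, 22 were tested, 17 were called higher, 3 were called lower and 2 were not called. Over all tested loci 2.63% were called higher and 0.493% lower. Their log2 fold changes had a median of 1.55, beside -0.01 for all tested loci, and DESeq2 called 24, all of which the choice of the list fixes. Without CO8-DA replicate 1 edgeR called 10, without control replicate 3 it called 11 and without CO8-DA replicate 2 it called 13.

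Phenylalanine ammonia-lyase makes the entry step of the pathway, and its listed loci were called higher, with log2 fold changes of 1.49 in Psat1g046920 (standard error 0.32) and 1.09 in Psat3g023040 (standard error 0.18). With a library left out, Psat1g046920 was called only in the fit without control replicate 1, and Psat3g023040 only in those without CO8-DA replicate 3 or control replicate 1. Among the enzymes that passed the filter, the largest called increases were in Psat7g117360, an isoflavone synthase of the legume phytoalexin branch, at 4.58, Psat7g177240, a lignin-forming peroxidase, at 4.48, and Psat7g248720, a dirigent protein that guides the coupling of lignin-type precursors, at 3.80. Psat7g117360 had only 2 counts in the control, against 64 in CO8-DA. A more abundant isoflavone synthase, Psat7g117880, was called higher at 3.09, with mean CPM of 75.98 after CO8-DA against 8.78 in the control. Estimates of Psat7g117360, Psat7g117880 and Psat7g248720 were not whole numbers in 5 libraries, and those of the ammonia-lyase loci in 6. The loci that share these reads were not searched. The call of Psat7g177240 was not made without CO8-DA replicate 2 or control replicate 3. A further lignin-forming peroxidase, Psat7g177200, missed the filter with 23 counts in CO8-DA against 0 in the control. DESeq2 and edgeR without the filter called Psat7g177200 higher. The called decreases were in Psat5g201640, a flavonoid hydroxylase, at -2.06, Psat3g198520, a caffeic acid O-methyltransferase, at -1.86, and Psat6g237920, chalcone isomerase 2, at -1.68. Psat3g198520 kept its call only in the fit without control replicate 3 among those with a library left out, and was at -1.42 and not called with the block by description number. Another caffeic acid O-methyltransferase, Psat3g198600, was called higher at 1.17. Estimates of both were not whole numbers in 6 libraries, so both values depend on how RSEM divided reads. Whether they share reads with each other was not tested. Psat6g077360, a leucoanthocyanidin dioxygenase-like protein, was at -1.70 but was not called by edgeR. Another locus of that description, Psat3g038560, was called higher at 1.13. Chalcone isomerase closes the flavonoid ring, and its other locus, Psat6g238360, was called higher at 1.09. For the flavonol branch that the text of Psat4g215000 names, the locus at hand was Psat0s675g0040, a flavonol synthase or flavanone hydroxylase. It had 2 counts in CO8-DA against 31 in the control and missed the filter. Both DESeq2 and edgeR without the filter called Psat0s675g0040 lower. Psat7g117880, Psat3g198600, Psat6g238360, Psat6g077360, Psat3g038560, Psat7g177200 and Psat0s675g0040 are named because of their values.

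The signalling chain that carries chitin perception to the nucleus was examined at 6 MAP kinase kinase loci and 3 receptor-like cytoplasmic kinase loci. The first were taken as a family. The others were taken by similarity to rice and Arabidopsis proteins, and were already known not to be among the changed genes of the study, so the absence of calls at them was fixed beforehand. MAP kinase kinase kinases were not listed. edgeR called 0 of the 9 and DESeq2 called 0 of the 9, with 2 at an unadjusted edgeR p under 0.05. Over all tested loci edgeR called 3.13% and 19.1% had such a p, so these counts are no result about the kinases. Psat1g187560, a kinase like RLCK185 and PBL27, which pass the signal on from the chitin receptor in rice and Arabidopsis, had a log2 fold change of -0.34 (edgeR Benjamini-Hochberg adjusted p of 0.0980, with 0.0916 to 0.294 over the alternatives). For Psat1g050720 (PsMAPKK5) the log2 fold change was -0.28 (edgeR Benjamini-Hochberg adjusted p of 0.234, with 0.220 to 0.425 over the alternatives). Both were lower in all 3 CO8-DA libraries than in any control library, as were 11.7% of all tested loci. The median of the 9 was -0.14, and the values ran from -0.59 in Psat1g029480 (PsMAPKK6) to 0.91 in Psat1g131480 (PsMAPKK1), whose standard errors were 0.49 and 0.68. Both ends moved with control replicate 1, the highest control library at both loci. Without it Psat1g131480 lay further out at 2.19, whereas Psat1g029480 turned to 0.13. The block by description number gave 2.36 and 0.40, but control replicate 1 stands alone under its number there and adds nothing to the difference. Neither locus was called in either fit. The values of the others were 0.12 in Psat4g016480 (PsMAPKK2), 0.05 in Psat1g054880 (PsMAPKK3), -0.14 in Psat7g263320 (PsMAPKK4), 0.02 in Psat1g187600 (like RLCK185 and PBL27) and -0.18 in Psat3g139680 (like RLCK176).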

How the data were processed

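The deposited table holds estimated counts per gene that the authors made with RSEM, without normalization, for 6 libraries of pea roots. Per the submitters' processing notes, reads were trimmed with Trimmomatic 0.39, aligned with Bowtie2 2.4.4 to the genome v1a and counted with RSEM 1.3.1. Whether counting used the strand of the directional kit is not given in the sources used here. Groups and replicate numbers came from the sample titles.

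After rounding to whole numbers, edgeR 4.0.16 under R 4.3.3 was used for TMM scaling, its default filterByExpr and the two-sided quasi-likelihood test (glmQLFit, glmQLFTest), with Benjamini-Hochberg adjustment over 21293 loci. A locus was called where the adjusted p was under 0.05 and the log2 fold change 1 or more in size. The standard error is the absolute log2 fold change divided by the square root of F. The study's methods describe the replicates as independent biological repeats, each from several plants. Alternatives were DESeq2 1.42.0, other scalings and filters, unrounded counts, blocks, and fits lacking 1 library each. The procedure was tested on simulated data.

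The MYB loci and all gene lists were chosen with earlier results of these data known. Descriptions and Gene Ontology text came from the supplementary annotation of the study. Loci were named by rule: all 5 MYB loci, the 3 nearest profiles of each among loci with a mean log2 CPM of at least 2 (0 for members under 2), called neighbours, the 9 kinases, MYB-described loci at the threshold, and of the enzymes the 3 highest and the 3 lowest among those called, with the ammonia-lyases. Loci outside the rule are said to be named because of their values. No sequence of these loci was used here.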

Additional observations from a re-analysis of the deposited data

How the results depend on the processing

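Calls at the MYB loci were lost more often with a library left out than under the other settings. Such a fit also has fewer libraries, which can cost calls whichever library is left out. How much of the loss came from this was not tested. The number of called members was 4, and 1 to 5 with 1 library left out, with 2 without CO8-DA replicate 1 and 1 without CO8-DA replicate 3 or control replicate 3. Psat4g080720 has a value only where the filter lets it pass. All 5 members kept their direction in every fit that gave a value. Over all loci 561 were called higher and 105 lower. Leaving out 1 library gave 338 to 778 higher and 33 to 165 lower. Without CO8-DA replicates 1, 2 and 3 the loci called higher numbered 345, 338 and 349. Without control replicates 1, 2 and 3 they numbered 778, 450 and 409. DESeq2 called 196 lower, and no fold threshold gave 256 lower. The replicate block by title number gave 588 higher and 118 lower with 4 members called. Same-numbered libraries correlated at 0.226, 0.0449 and 0.151 in their deviations, and unlike-numbered libraries at -0.201 to 0.0869. Each CO8-DA library correlated most with its same-numbered control, but weakly. These values do not settle whether the numbers pair the samples, and the main fit used no block. A replicate block by the number in the sample descriptions, of which only 2 occur in both groups, gave 888 higher and 206 lower. Control replicate 1 and CO8-DA replicate 3 stand alone under their numbers in it and add nothing to the fitted difference. With this block 1 other MYB-described locus was called against 0, and that count was 0 to 1 with a library left out. Called enzyme loci numbered 20, and 10 to 20 with a library left out (10 without CO8-DA replicate 1, 11 without control replicate 3, 13 without CO8-DA replicate 2). Neighbours and chitin signalling kinases called were 0 in every alternative. The sign turned at 3 kinases, of which none was called. Psat1g054880 was at -0.036 without CO8-DA replicate 1 and -0.03 without control replicate 2, with 0.146 as the highest with a library left out. Psat1g029480 was at 0.40 with the description number block and 0.13 without control replicate 1, with -0.94 as the lowest when a library was left out. Psat1g187600 was at -0.029 with that block, -0.096 without CO8-DA replicate 3 and -0.054 without control replicate 3, with 0.083 as the highest when a library was left out. The cause of these changes was not tested. Low counts limit Psat4g080720 most, with 51 counts in all.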

Other observations

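Apart from the 5 loci, 16 loci carried MYB descriptions in the annotation at hand, which was ordered by fold change and cut off, so that their direction is fixed by the choice. Of these, 14 missed the low-count filter, with summed counts over the 6 libraries between 3 in Psat6g159880 (described as MYB2) and 50 in Psat3g008000 (a Myb/SANT-like protein). Psat3g008000 had 35 counts in CO8-DA against 15 in the control, and Psat7g154480, which shares reads with Psat7g159800, had 36 after CO8-DA against 6 in the control. At this depth most of these loci cannot be compared between the groups.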
